A study of Mus musculus with 4 samples.

Results

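The genes 5830411N06Rik, Cd163l1 and Trgv1 were followed through an array study of T cells that lack the forkhead transcription factor Foxo1. All probe sets carrying 1 of these names, or a synonym, in either of the authors' lists of changed probe sets were taken. This gave 4 probe sets for 3 genes, out of 507 genes (660 probe sets) with a usable symbol and 45037 probe sets on the array. Cd163l1 had 2 probe sets (1440808_x_at, called its x probe set here, and 1455527_at, called its plain probe set), 5830411N06Rik had 1 (1438536_at), and Trgv1 had 1 (1427608_a_at), listed under its older name Tcrg-V1. Because the authors listed these probe sets for a change between genotypes, their genotype differences are a description and carry no test.

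5830411N06Rik and Cd163l1, also called Scart2 and Scart1, encode mouse transmembrane proteins built from scavenger receptor cysteine-rich domains, a disulphide-bonded fold shared with surface proteins such as CD5, CD6 and CD163. Both have been described mainly on gamma delta T cells, lymphocytes whose receptor pairs a gamma with a delta chain in place of the alpha and beta chains of conventional CD4 and CD8 T cells. Trgv1 is a variable segment of the gamma chain locus, which is joined to a J segment and transcribed with a constant region when the chain is rearranged. Gamma chain rearrangement is not restricted to the gamma delta lineage, since mature alpha beta T cells can also carry rearranged gamma genes.

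The RNA came from T cells of the spleen and lymph nodes, taken from mice 6 to 8 weeks old. CD4 and CD8 T cells were each profiled from wild-type and from Foxo1-deficient animals, with 1 Affymetrix array for each of the 4 groups, so no value has a replicate, and the comparisons below are descriptions of single arrays without a test. How Foxo1 was deleted, in which cells, on what strain background, how the T cells were purified and how many mice were pooled are points not given in the sources used here. All 4 Foxo1 probe sets were lower in the deficient arrays. For the 3 that were above 74.9, the limit for low values used throughout, those arrays kept 4.91% to 13.5% of the wild-type intensity in CD4 and 17.4% to 26.6% in CD8, and the other was below it in both deficient arrays, which allows at most 12.3% and 19.2%. In bulk RNA, more cells that carry a transcript and more transcript per cell cannot be told apart.

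Intensities below 74.9, the median of all non-control values and called the floor here, were treated as unmeasured. A fold against such a value is a lower bound that holds with this floor only, written as "at least". The array medians ran from 69.0 to 77.6. None of the defining genes fixed for T cells (9 genes), CD4 T cells (2), CD8 T cells (2) or gamma delta T cells (6) carried a symbol, so the labelled cell types could not be checked against them.

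In the RefSeq gene order of GRCm38.p6, Cd163l1 and 5830411N06Rik follow each other on chromosome 7 in the same orientation (the olfactory receptor gene Olfr524 lies within the span of Cd163l1), while Trgv1 lies on chromosome 13. Since the adjacent pair was high in the same arrays, the 250 bases before an annotated start of each are shown (RefSeq, GRCm38.p6, both + strand), with the 20 bases nearest the start in capitals. The window of 5830411N06Rik is chr7:140247051-140247300 and that of Cd163l1 is chr7:140218017-140218266.
5830411N06Rik: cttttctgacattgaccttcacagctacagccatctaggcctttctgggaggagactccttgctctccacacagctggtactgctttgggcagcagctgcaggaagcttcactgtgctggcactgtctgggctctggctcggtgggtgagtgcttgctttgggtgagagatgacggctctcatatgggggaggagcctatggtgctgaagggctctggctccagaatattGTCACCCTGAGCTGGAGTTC
Cd163l1: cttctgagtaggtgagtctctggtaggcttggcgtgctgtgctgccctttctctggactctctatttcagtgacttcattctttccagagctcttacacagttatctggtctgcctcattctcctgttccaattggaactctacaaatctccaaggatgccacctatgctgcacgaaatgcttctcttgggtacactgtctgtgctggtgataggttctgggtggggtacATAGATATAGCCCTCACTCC
These windows held 56% and 48.8% G and C bases, and 2 CpG dinucleotides each, against a median of 52.4% G and C over 32851 such windows. The forkhead motifs GTAAACA and AAACAA, searched on both strands, were absent from both windows and from the other annotated starts of 5830411N06Rik. They occur in 3.17% and 18.3% of all windows of this length, and their absence concerns only these letters in these windows. Trgv1 was not matched in the promoter table.

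5830411N06Rik was low in both wild-type arrays and high in both deficient arrays. Its intensity was 83.4 in wild-type CD4, 5888 in deficient CD4, 103 in wild-type CD8 and 5711 in deficient CD8. The wild-type values stood just above the floor, and the deficient values were close to each other in the 2 cell types. The log2 difference between genotypes was 6.14 in CD4 and 5.79 in CD8. With low values of all probe sets set to the floor, so that some of them are ranked by a bound, it was rank 3 from the highest of 24070 probe sets compared in CD4 and rank 1 of 23803 in CD8.

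**Figure D1:**
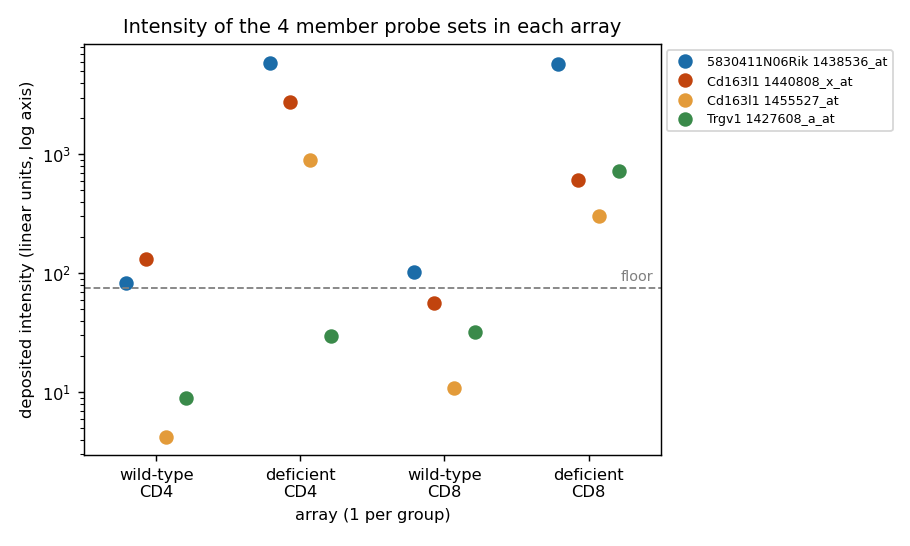
Deposited intensity (log axis) of the 4 probe sets in each of the 4 arrays, 1 point per probe set and array, with the floor of 74.9 as a dashed line. 5830411N06Rik and both Cd163l1 probe sets stand far above the floor in both deficient arrays, whereas Trgv1 does so in the deficient CD8 array (728) and is at 29.5 in the deficient CD4 array.

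Cd163l1 was also higher in both deficient arrays, and to a higher intensity in CD4 than in CD8. The x probe set read 130 in wild-type CD4, 2746 in deficient CD4, 56.5 in wild-type CD8 and 610 in deficient CD8. The plain probe set read 4.24, 897, 10.8 and 304 in the same order. Each probe set was highest in deficient CD4 and next in deficient CD8, and only 1 of their 4 wild-type values was above the floor. Between genotypes the x probe set was 21.0-fold higher in CD4 and at least 8.15-fold higher in CD8, and the plain probe set was at least 12.0-fold and at least 4.06-fold higher. With bounds taken at the floor, the mean log2 difference over the 2 probe sets was 3.99 ± 0.58 in CD4 and 2.52 ± 0.71 in CD8 (SD between 2 probe sets on the same arrays, not between mice). Both means are thus lower bounds. In CD8 both wild-type values were set to the floor, so the SD there only restates the deficient intensities of 610 and 304. Without a floor the CD8 differences were 3.43 (x) and 4.81 (plain), in the opposite order. The suffix _x_at marks a probe set with probes that can match other sequences, so signal from a related transcript was not separated here.

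Trgv1 was above the floor in 1 of the 4 arrays. Its intensity was 8.97 in wild-type CD4, 29.5 in deficient CD4, 31.9 in wild-type CD8 and 728 in deficient CD8. The deficient CD8 value was at least 9.71-fold above the wild-type CD8 array (log2 at least 3.28). In CD4 both arrays were below the floor, so no fold is given there. Of 15 numbered Trg gene segments in RefSeq, 7 of them V segments and 4 constant regions, Trgv1 was the 1 with a symbol in the authors' lists. Whether its signal came with other rearranged gamma transcripts could not be followed.

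Past a 2-fold difference between genotypes were 3 of 3 probe sets compared in CD4, where 1.5% of all probe sets compared were at least 2-fold higher. In CD8 this held for 4 of 4, against 1.47% of all (2.04% were lower, and with the arrays centred on their medians 2.34% were higher and 1.38% lower), and in both cell types for 3 of 3, against 0.467%. With the floor at the 75th percentile (470.6) it held for 2 of 3 compared in CD4 and for 1 of 3 in CD8, 5830411N06Rik. As the members were selected for this contrast, these counts are not evidence about them. For scale, the 99th percentile of the log2 difference over all probe sets compared was 1.12 in CD4 and 1.12 in CD8. Listed probe sets of 1 gene, measured in both arrays, differed among themselves by a pooled SD of 0.39 log2 units in CD4 and 0.38 in CD8 (76 genes each). Probe sets of the same gene that the authors did not list do not enter this spread. Array medians differed between deficient and wild-type by -0.16 log2 units in CD8, and centring on them gave 5.95 for 5830411N06Rik there.

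**Figure D2:**
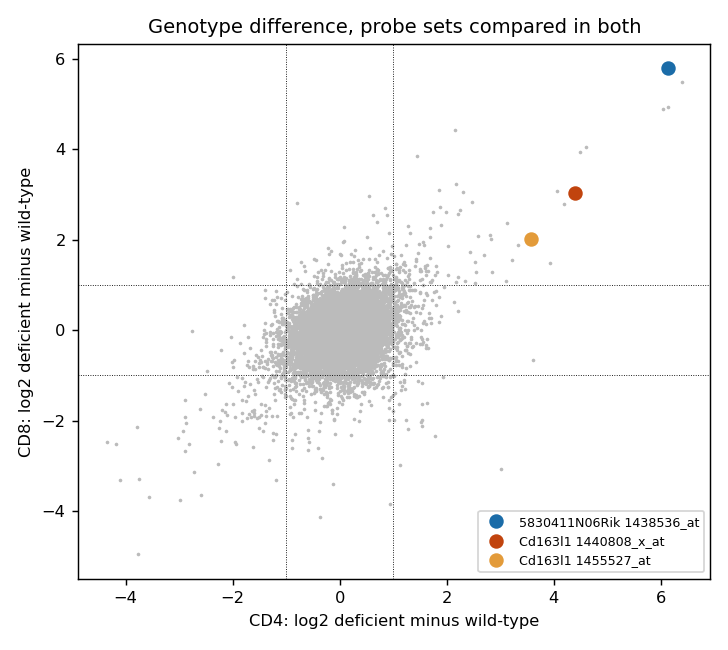
Log2 difference between deficient and wild-type in CD4 (x axis) and CD8 (y axis) for 22498 probe sets compared in both (grey), with 5830411N06Rik and the 2 Cd163l1 probe sets in colour and dotted lines at a 2-fold difference. 5830411N06Rik lies at 6.14 and 5.79, and Cd163l1 at 4.40 and at least 3.03 (x) and at no less than 3.58 and 2.02 (plain), where the last 3 values are lower bounds set by the floor.

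Cell types were then set against each other within a genotype. In the deficient arrays this contrast reuses the intensities for which the probe sets were listed, so it is not independent of their selection. In wild-type cells 5830411N06Rik differed by a log2 of 0.31 (CD8 minus CD4), within the pooled SD of 0.33 between listed probe sets of 1 gene. The x probe set of Cd163l1 was at least 1.74-fold lower in wild-type CD8. With this floor neither was counted past 2-fold, where 2.2% of all probe sets were higher and 2.31% lower in CD8. The bound for the x probe set leaves a 2-fold difference possible, and without a floor its log2 difference was -1.21. The other 2 probe sets were below the floor in both wild-type arrays.

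In deficient cells the 3 genes differed in how they were divided between the cell types. 5830411N06Rik was near equal, with a log2 difference of -0.04 (CD8 minus CD4) as deposited and 0.09 with the arrays centred. Cd163l1 was 4.50-fold lower in CD8 by the x probe set and 2.95-fold lower by the plain probe set, where 2.94% of all probe sets were at least 2-fold lower (2.12% with the arrays centred). Trgv1 was at least 9.71-fold higher in CD8, where 1.92% of all were at least 2-fold higher (2.6% with the arrays centred). This is the same bound as between genotypes, since both set the deficient CD8 value against the floor. With the floor at the 75th percentile the log2 differences were -0.93 for the plain probe set of Cd163l1 and 0.63 for Trgv1, both under 2-fold. Deficient CD4 and CD8 thus had close values for 5830411N06Rik, Cd163l1 was higher in CD4, and Trgv1 was above the floor in CD8 alone.

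The gap between the genotype differences (CD8 minus CD4) of the x probe set of Cd163l1 was -1.37 log2 units with wild-type CD8 at the floor, and -0.96 without a floor. As the CD8 difference is a lower bound, -1.37 is the lowest value the gap can take with this floor. Of 22498 probe sets, 3.66% had a gap of -1 or lower with low values at the floor. For the plain probe set both wild-type arrays were below the floor, so its gap at the floor only restates the difference between the deficient arrays. For 5830411N06Rik the gap was -0.35. The pooled SD between listed probe sets of 1 gene (0.39 in CD4 and 0.38 in CD8) is that of a single difference on the same arrays, so it gives no spread for this gap. This gap between cell types was not tested, since 4 single arrays leave no residual spread for it.

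The authors' deposited table for each cell type gives a second set of intensities for the same arrays, called raw in its header. The members were taken from these tables of changed probe sets, so their change there follows from that selection. The ranks below are among listed probe sets only. In the authors' deposited table for CD4, 5830411N06Rik was 29.4-fold higher (155 in wild-type, 4549 in deficient), rank 4 of 395 probe sets. In the authors' deposited table for CD8 it was 37.4-fold higher (116 and 4350), rank 2 of 496. Cd163l1 was 14.4-fold and 4.55-fold higher by its 2 probe sets in the authors' deposited table for CD4, and 6.77-fold and 2.16-fold in that for CD8. For the plain probe set these ratios lie below the bounds of 12.0 in CD4 and 4.06 in CD8 given above. For the x probe set in CD8 the ratio lies below the bound of 8.15. Those bounds therefore hold only for the value table with its floor. Trgv1, at 68.7 in wild-type and 675 in deficient, was 9.82-fold higher in the authors' deposited table for CD8, and the table for CD4 does not list it.

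Across the 7 listed pairs, the deficient intensity in the value table was 0.95 to 1.87 times that in the authors' deposited table, and the wild-type intensity in the authors' deposited table was 0.78 to 41.9 times that in the value table. The widest gap was at a low wild-type value. For the plain probe set of Cd163l1 the wild-type intensity was 178 in the authors' deposited table and 4.24 in the value table in CD4, a ratio of 41.9, and 148 and 10.8 in CD8, a ratio of 13.7. The deficient intensity of this probe set in the value table was 1.11 and 0.95 times that in the authors' deposited table for CD4 and CD8. The log2 ratio of Cd163l1 differed between cell types (CD8 minus CD4) by -1.09 and -1.08 in the authors' deposited tables, close to each other for the 2 probe sets, and that of 5830411N06Rik by 0.35, opposite in sign to the value table. In the authors' deposited tables, deficient CD4 exceeded deficient CD8 by 3.12-fold and 2.53-fold for Cd163l1 and by 1.05-fold for 5830411N06Rik, across tables for which no common scaling is stated.

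**Figure D3:**
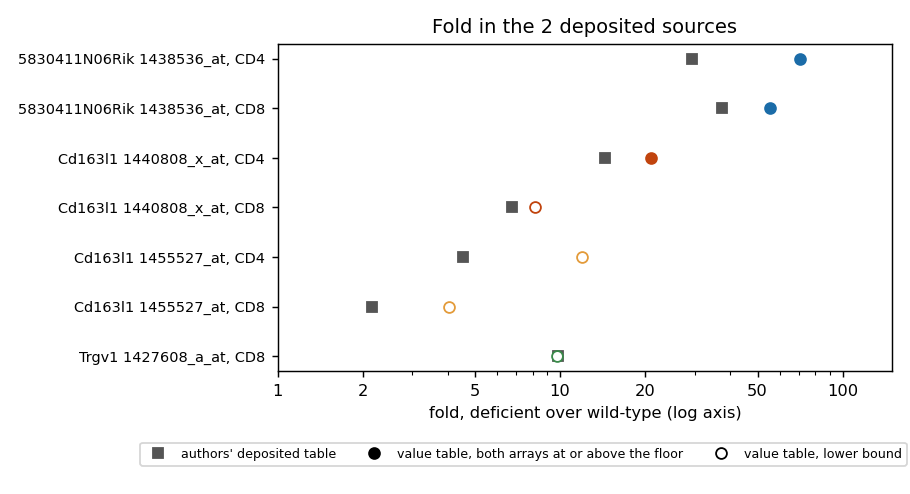
Fold of deficient over wild-type (log axis) for the 7 pairs of probe set and cell type listed by the authors. Squares are the authors' deposited table, filled circles the value table and open circles lower bounds from the value table. The largest distance for a measured value is that of 5830411N06Rik in CD4 (29.4 against 70.6), and Trgv1 stands at 9.82 against a lower bound of 9.71 that the floor sets (22.8 without a floor).

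Genes with the most similar profile over the 4 arrays were found by the Euclidean distance between log2 values, each centred on its own mean and with low values set to the floor, among 500 other named genes. For 5830411N06Rik the nearest was Tgm2, the protein-crosslinking transglutaminase (distance 0.81), at 84.6, 7103, 58.0 and 3350 in wild-type CD4, deficient CD4, wild-type CD8 and deficient CD8. The immunoglobulin genes Igh-VJ558 (2.08) and Igh (2.66), the granzyme gene Gzma (3.23) and Igk-V1 (3.33) followed. Tgm2, Igh-VJ558 and Igh were nearer to 5830411N06Rik than its neighbour on the chromosome, Cd163l1 (2.82).

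For Cd163l1 the nearest was Lgals3, which encodes a galectin, at a distance of 1.17. Its intensities were 73.5 in wild-type CD4, 1147 in deficient CD4, 6.58 in wild-type CD8 and 210 in deficient CD8, again highest in deficient CD4. The heat shock gene Hspa1b (1.18), Arhgap20 (1.33), the NF-kB regulator gene Bcl3 (1.94) and Drc1 (1.94) came next. All 5 were brightest in deficient CD4, which choosing them by nearness to this profile favours. Their folds between genotypes were 3.73 to 15.3 in CD4 and 2.05 to 5.17 in CD8 (bounds included).

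For Trgv1 the nearest were Cd38, which encodes a surface ectoenzyme (distance 0.71), and Tbx21, which encodes T-bet, a transcription factor of type 1 lymphocytes (0.84). Cd38 read 114, 175, 157 and 921, and Tbx21 read 8.65, 110, 165 and 1295, in the order wild-type CD4, deficient CD4, wild-type CD8 and deficient CD8. The serine protease inhibitor gene Serpina3g (1.02), the E-cadherin gene Cdh1 (1.12) and the chemokine gene Xcl1 (1.16) followed. All 5 were brightest in deficient CD8, which the choice by nearness again favours. Trgv1 itself was 4.93 from 5830411N06Rik and 4.41 from Cd163l1. The named genes had been selected by the authors for a change, so the nearest genes are the nearest within that selection, and without a floor 3 of the 5 named for 5830411N06Rik, 3 for Cd163l1 and 1 for Trgv1 were again among the nearest 5.

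**Figure D4:**
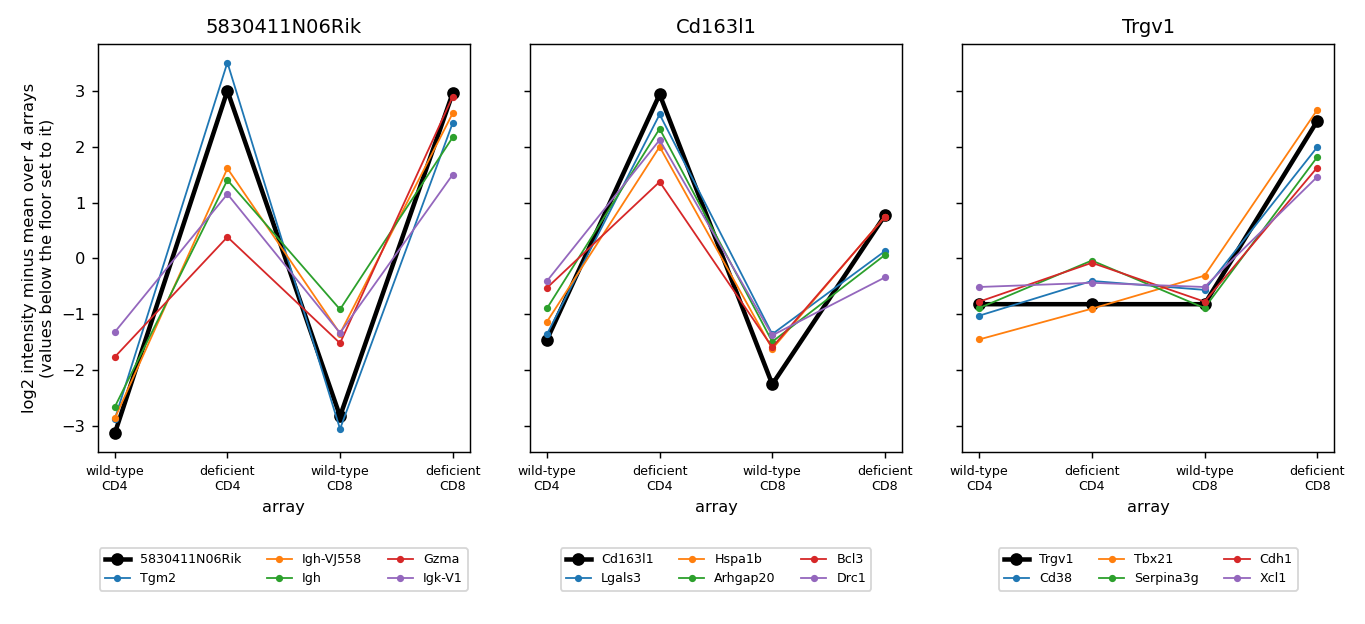
Log2 intensity minus its mean over the 4 arrays, for the brightest probe set of each of the 3 genes (black) and of the 5 named genes nearest to it (colours), with values below the floor set to it. The profile of 5830411N06Rik is high in both deficient arrays, that of Cd163l1 highest in deficient CD4, and that of Trgv1 raised in deficient CD8.

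Other genes linked to innate-like T cells could be followed only where they carried a symbol. Of a list of 46 genes of the gamma delta and innate-like T cell programme, 12 were named. In CD4, 2 of the 10 compared were at least 2-fold higher without Foxo1 and 2 at least 2-fold lower (1 with the arrays centred), where 1.5% of all probe sets were higher and 1.26% lower. In CD8, 6 of 12 were higher and 3 lower, where 1.47% of all probe sets were higher and 2.04% lower. The median log2 difference was 0.32 in CD4 and 0.85 in CD8, against 0.02 and -0.00 over all probe sets compared. The authors had selected all 12 for a genotype change, so their directions are not independent of that choice.

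The receptor and lineage genes of that list went in both directions, and each is given by its brightest probe set. Other probe sets of these genes had the same sign where compared but differed in size. Rora, which encodes the nuclear receptor ROR alpha, had a log2 difference of 2.03 in CD4 (97.4 to 397) and 1.23 in CD8 (107 to 250). The other Rora probe sets ran from 0.52 to 1.73 in CD4 and from 0.49 to 1.10 in CD8. Ikzf2, which encodes the zinc finger factor Helios, had 2.02 and 1.87. Tbx21 read at least 0.55 in CD4 and 2.97 in CD8, and Cd160, an activating receptor gene of cytotoxic lymphocytes, at least 0.09 and 2.28. The other Cd160 probe sets gave 1.29 and 2.08 in CD8. Maf, a factor of IL-17-producing gamma delta T cells, was at -0.23 in CD4 and at least 1.46 in CD8. The adhesion receptor gene Cd44 was at -0.36 in CD4 and 1.01 in CD8. Against these, Il7r, which encodes the IL-7 receptor alpha chain, was at -1.93 in CD4 and -2.52 in CD8. Igf1r, the insulin-like growth factor receptor gene, was at -1.03 and -1.48. The other Igf1r probe sets gave -0.89 and -0.65 in CD4, and -2.43 and at most -1.10 in CD8. Cxcr6, a chemokine receptor gene, was at -1.94 in CD8 and below the floor in both CD4 arrays. Eomes (0.65 and 0.69), S100a4 (at least 0.80 and at least 0.09) and Actn2 (at most -0.64 in CD8) were the other named members.

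The 2 named relatives among 26 other genes with scavenger receptor cysteine-rich domains were lower in the deficient arrays, opposite to Cd163l1 and 5830411N06Rik. The authors had selected both for a genotype change, so their direction is not independent of that choice. The rest of the 26 carried no symbol and were not followed. Of all probe sets compared, 1.26% were at least 2-fold lower in CD4 and 2.04% in CD8. Prss12, a serine protease with such domains, read 230 in wild-type CD4, 96.2 in deficient CD4, 304 in wild-type CD8 and 81.0 in deficient CD8, a log2 difference of -1.26 and -1.91. Dmbt1, a secreted mucosal protein with many such domains, read 114, 54.5, 119 and 33.2 in the same order, so that both deficient arrays were below the floor and the difference was at most -0.61 and at most -0.67. Cd5, Cd6 and Cd163 carried no symbol. Of the alpha, beta and CD3 receptor genes none carried a symbol, so the receptor type of the cells could not be read from them.

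**Figure D5:**
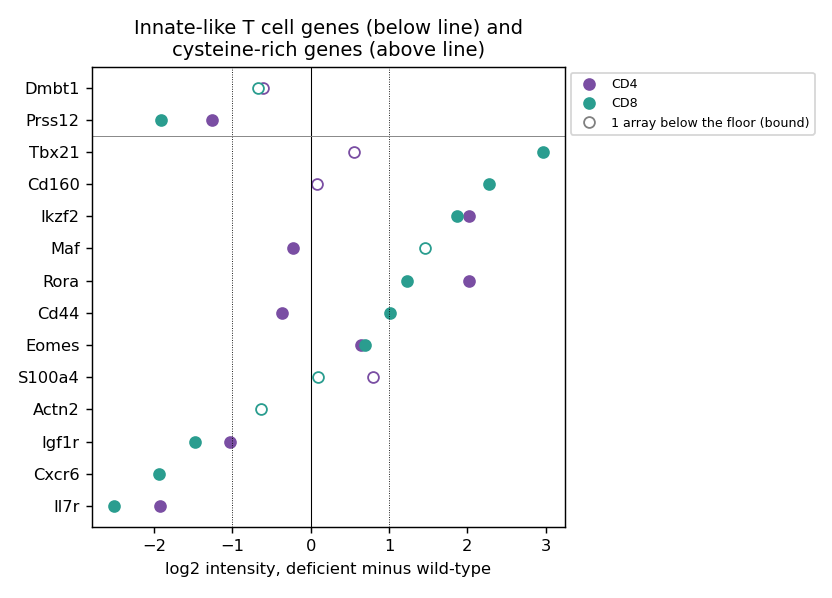
Log2 difference between deficient and wild-type in CD4 (purple) and CD8 (green) for the brightest probe set of each named gene of the innate-like list (below the line) and of the scavenger receptor cysteine-rich list (above it), with open circles where 1 of the 2 arrays was below the floor. Among differences measured in both arrays, Tbx21 (2.97) is the highest in CD8 and Il7r (-2.52) the lowest, while open circles are bounds, and both cysteine-rich genes lie below 0 in both cell types.

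Markers of other cell types were named for 8 of 31 genes in 6 lists, and their part in the results was not tested. Their summed intensity was 2891 in wild-type CD4, 3282 in deficient CD4, 23604 in wild-type CD8 and 16512 in deficient CD8. In CD8 the NK cell genes made up 22676 (wild-type) and 12794 (deficient) of these sums. Whether those genes were carried by NK cells or by the CD8 T cells themselves was not tested. The sums therefore give no share of other cells. The B cell gene Igkc read 257, 1157, 171 and 1595 in wild-type CD4, deficient CD4, wild-type CD8 and deficient CD8, and the plasma cell gene Jchain read 91.0, 335, 85.1 and 560. The B cell gene Ighm read 56.9, 107, 44.3 and 314 by its brightest probe set. By these probe sets all 3 genes were higher in the deficient arrays. Another Ighm probe set read 21.3, 142, 18.0 and 333, and the remaining Ighm probe set was below the floor in all 4 arrays (33.9, 51.4, 11.6 and 64.3). The dendritic cell gene H2-Aa went from 791 to 1159 in CD4 and from 461 to 1059 in CD8, and the myeloid gene Lyz2 from 152 to 165 and from 46.6 to 138. The 2 named NK cell genes differed from this: Klrd1 went from 1327 to 95.8 in CD4 and from 12752 to 2875 in CD8, while Nkg7 went from 64.1 to 195 and from 9924 to 9920. The red cell gene Hba-a1 went from 152 to 68.6 and from 120 to 51.2. Marker values below 74.9 are under the floor and count as unmeasured, although the sums include them.

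No other gene near the 3 was named: of 19 protein-coding neighbours of Cd163l1 and of 5830411N06Rik (10 on each side, the other member left out) and 20 of Trgv1, 0 carried a symbol in the authors' lists.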

How the data were processed

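In the deposited value table each probe set has 1 linear intensity for each array, and the authors' 2 tables of changed probe sets hold a ratio of deficient over wild-type and both raw intensities, per the file headers. The header names of those 2 tables stand 1 column to the left of the values. Each ratio equals the quotient of its intensities within a relative tolerance of 1e-06. Per the labels' protocols, 0.5 ug of total RNA went into biotinylated cRNA. The summary of probes, background correction and scaling are not given in the sources used here.

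Of 45101 probe sets, 64 controls were left out. Symbols came from the 694 probe sets in the authors' tables: 563 were current in RefSeq, 56 were updated through a synonym held by 1 gene, 41 were kept, 33 had none and 1 had become a date. Values below 74.9 were set to it, probe sets below it in both arrays were left out, and log2 differences were counted past 2-fold. Per gene, the brightest probe set by its mean over the arrays was used in the lists, and by its maximum for the nearest profiles. The 3 genes and the lists were chosen with earlier results of these data known. The text names the 3 genes, the 5 nearest profiles each, every named list gene and cell markers. The number of arrays limits the precision. Counting was tested on simulated arrays. Python 3.11.15, numpy 2.4.6, pandas 2.3.3 and matplotlib 3.10.9 were used. Alternatives were other scalings, floors and thresholds, the mean over probe sets, and the authors' ratios.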

Additional observations from a re-analysis of the deposited data

How the results depend on the processing

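The sign of the genotype difference held in every alternative run for the 4 probe sets where they were compared, and its size depended mainly on the floor, since wild-type values were low. The values below give Trgv1 between genotypes in CD8. In CD4 it was compared only with a lower floor or none, and without a floor its log2 difference was 1.72 (8.97 to 29.5). With the floor at the 25th percentile, 3 of 4 members compared in CD4 were at least 2-fold higher. Centring or quantile normalization moved no member value by more than the spread between listed probe sets of 1 gene. With the floor at the 25th percentile (17.7), the plain probe set of Cd163l1 gave 5.66 in CD4 and 4.10 in CD8, its x probe set gave 3.43 in CD8 and -1.21 between wild-type cell types, and Trgv1 gave 4.51 between genotypes and 4.63 between deficient cell types. With no floor the values were 7.73 and 4.81 for the plain probe set, 3.43 and -1.21 for the x probe set, and 4.51 and 4.63 for Trgv1, and the CD8 minus CD4 gap of the plain probe set was -2.91. With the floor at the 75th percentile (470.6), 5830411N06Rik gave 3.65 in CD4 and 3.60 in CD8, the x probe set 2.54 and 0.38 with a gap of -2.17, the plain probe set 0.93 in CD4 and -0.93 between deficient cell types, and Trgv1 0.63 in both its comparisons. Then 1 of the members was at least 2-fold higher in CD8. The mean over its probe sets gave Cd163l1 3.99 in CD4 and 2.52 in CD8. In the authors' deposited tables the log2 ratios were 4.88 and 5.22 for 5830411N06Rik, 3.85 in CD4 for the x probe set, and 2.19 and 1.11 for the plain probe set. The share of all probe sets at least 2-fold higher in CD8 was 1.47%, and 2.34% with centred arrays. At 1.5-fold the shares were 6.6% in CD4 and 6% in CD8, at 3-fold 0.349% and 0.307%, and at 2-fold 5.07% and 4.43% with the lower floor and 0.712% and 0.783% with the higher. Each group had 1 array, so there was no replicate number to pair by and no array to leave out. A fit of genotype with cell type as a block, which the 4 arrays allow, was not run, because the genes had been chosen on the genotype contrast.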
